A study of Mus musculus with 14 samples.

Results

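Transcripts of 10 genes that hepatoblasts and hepatocytes express strongly were followed in RNA sequencing libraries of sorted mouse fetal liver cells. The genes were Alb, Afp, Apoa1, Apoa2, Apob, Ttr, Trf, Ahsg, Fgb and Serpina1a. They were found by gene symbol among the 45706 genes of the deposited tables, and all 10 had an entry in both tables. The choice used no measured value, but it was made with earlier results of these data known. The study asked what loss of the arginine methyltransferase PRMT5 does to blood-forming cells, and the fetal samples were cells of the liver at stage E14.5, sorted on Ter119, a surface antigen of maturing erythroid cells. All fetal mice were PRMT5fl/fl, that is, both copies of the gene carried the recombination sites. The knockout (KO) mice carried Vav-cre in addition and the control (WT) mice did not. The 4 fetal groups, Ter119neg KO, Ter119neg WT, Ter119pos KO and Ter119pos WT, held 2 libraries each, A and B, from different mice. Both fractions came from the same animal in mouse 1 (KO A), mouse 2 (KO B) and mouse 4 (WT B). The WT A libraries came from mouse 3 for Ter119neg and from mouse 5 for Ter119pos. The second table held 6 libraries of sorted LK cells, a progenitor fraction, 3 from PRMT5fl/fl mice with Mx1-cre (KO) and 3 from PRMT5fl/fl mice without it (WT). Both LK groups had received poly(I:C), the agent that switches Mx1-cre on, 7 days before collection. For LK cells no animals are named, and a p-value for them measures only how these libraries spread, which may be technical.

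Hepatoblasts are the fetal liver's epithelial progenitors, which later form hepatocytes and bile duct cells. In the fetus they sit among blood-forming cells that use the liver as their main site, and they secrete much of the plasma protein of the embryo. Vav-cre is driven by regulatory elements of a gene of the blood lineage and is known for recombination in blood and endothelial cells. In sorted blood cells such transcripts are commonly read as a gauge of liver cell RNA, although a gene such as Trf is not restricted to the liver. In bulk RNA, fewer cells of a type and less RNA per cell cannot be told apart, and neither can intact hepatoblasts and RNA freed from them.

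Hepatocyte nuclear factor 1 (HNF1) is a homeodomain protein of liver, kidney and gut epithelium, and the promoters of albumin, alpha-fetoprotein, fibrinogen and alpha-1-antitrypsin genes are classical HNF1 targets. The promoters of 8 of the 10 genes were listed in the RefSeq promoter table (GRCm38.p6). Of the 8, 4 held the HNF1 half-site GTTAAT, read on either strand (ATTAAC on the other). The window searched was the 250 bases before the start of transcription as taken from that table. These 4 are printed 5′ to 3′ on the strand of the gene because they show what genes of this group share outside their expression values. The half-site is in capitals. They lie at chr5:90460620-90460869 on the plus strand (Alb), chr5:90490464-90490713 on the plus strand (Afp), chr12:103863620-103863869 on the minus strand (Serpina1a) and chr3:83049864-83050113 on the minus strand (Fgb).
Alb: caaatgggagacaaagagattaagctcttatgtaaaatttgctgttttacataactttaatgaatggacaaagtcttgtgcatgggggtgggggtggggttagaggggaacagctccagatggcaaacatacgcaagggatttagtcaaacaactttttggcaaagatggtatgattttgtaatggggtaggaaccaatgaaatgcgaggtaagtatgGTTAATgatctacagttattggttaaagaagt
Afp: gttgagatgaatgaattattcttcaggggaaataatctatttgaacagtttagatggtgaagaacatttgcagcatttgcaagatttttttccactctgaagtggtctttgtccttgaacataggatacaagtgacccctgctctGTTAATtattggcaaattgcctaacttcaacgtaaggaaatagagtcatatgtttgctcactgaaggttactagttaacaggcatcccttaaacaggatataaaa
Serpina1a: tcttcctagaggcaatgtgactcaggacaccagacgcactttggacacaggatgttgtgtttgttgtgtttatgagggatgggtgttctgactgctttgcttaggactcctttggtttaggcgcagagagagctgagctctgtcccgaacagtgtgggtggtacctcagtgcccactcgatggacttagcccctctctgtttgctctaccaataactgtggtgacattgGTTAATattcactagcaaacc
Fgb: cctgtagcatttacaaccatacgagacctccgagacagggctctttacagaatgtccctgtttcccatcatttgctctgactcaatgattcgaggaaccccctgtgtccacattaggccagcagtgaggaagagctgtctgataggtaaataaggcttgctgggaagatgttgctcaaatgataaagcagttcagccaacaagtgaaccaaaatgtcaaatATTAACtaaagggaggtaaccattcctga
In Alb, Serpina1a and Fgb the half-site began 32, 21 and 29 bases before the end of the window, and in Afp 105 bases before it. Gene positions given below come from another annotation, GENCODE. The windows of Alb, Afp and Serpina1a stop short of its gene starts (90460897, 90490737 and 103863562), so the distances to those starts are longer. The window of Fgb ends next to its gene start at 83049863. GTTAAT was present in 6.43% of all 32851 promoter windows of this length in the table. The forkhead motif TGTTTGC, of the type that FOXA proteins bind and GCAAACA on the other strand, was in 6 of the 8 (Afp, Ahsg, Alb, Apoa1, Apob and Serpina1a) against 4.30% of all windows. The CCAAT box, searched as CCAAT and, for the other strand, as ATTGG, was in 4 (Afp, Alb, Apoa2 and Serpina1a) against 33.8%, the TATA motif TATAAA, or on the other strand TTTATA, was in 3 (Afp, Apoa2 and Apob) against 12.4%, and the nuclear receptor half-site AGGTCA, or on the other strand TGACCT, was in Apoa2 alone against 14.0%. Matches of different motifs overlapped in 1 place, by 1 base, where ATTGG runs into GTTAAT in Serpina1a. The motifs were chosen after the sequences had been read, and a match is a description of the letters, not of a bound site.

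The libraries held between 19514550 and 30976961 counts. The targeted gene, Prmt5, fell from 52.0 ± 0.347 to 4.38 ± 0.179 counts per 1000000 (CPM, mean ± SD, n = 2) in Ter119neg and from 15.7 ± 2.79 to 4.28 ± 0.903 in Ter119pos, as the labels state. Kit, a progenitor receptor, was at 96.4 to 110 CPM in Ter119neg, 7.28 to 14.0 in Ter119pos and 209 to 388 in LK libraries, and globin transcripts made up 16.4 to 25.1% of counts in Ter119pos and 0.0679 to 0.183% in Ter119neg. One feature of the fetal libraries touches every comparison of genotypes below. The small noncoding RNAs Rn7s1, Rn7s2 and Rn7sk took 32.2 and 31.1% of counts in the Ter119pos KO libraries against 5.71 and 5.90% in the Ter119pos WT libraries, and 23.9 and 26.9% against 14.3 and 20.2% in Ter119neg. CPM values were therefore scaled by the trimmed mean of M-values (TMM), which sets the bulk of genes level, and the share of total counts is given beside them where the 2 scales differ.

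Albumin (Alb), the main carrier protein of plasma, and alpha-fetoprotein (Afp), its fetal relative, led the 10 per length of transcript. Alb (ENSMUSG00000029368, chromosome 5, 90460897 to 90476602, GRCm38) was at 147 and 93.4 CPM in the Ter119neg WT libraries A and B and at 85.7 and 43.3 CPM in the Ter119neg KO libraries. In Ter119pos it was at 15.7 and 11.1 CPM in WT and 18.2 and 27.4 CPM in KO. Each Ter119neg library was above each Ter119pos library. Afp (ENSMUSG00000054932), which lies next to Alb on chromosome 5 at 90490737 to 90508907, was at 194 and 109 CPM in Ter119neg WT and 108 and 53.3 CPM in Ter119neg KO. Its Ter119pos values were 16.1 and 12.8 CPM in WT and 25.1 and 35.5 CPM in KO. Both genes had the same order of libraries within Ter119neg, with WT A highest and KO B lowest.

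Apolipoproteins carry lipid in plasma. Apoa1, the main protein of high-density lipoprotein (ENSMUSG00000032083, chromosome 9, 46228580 to 46230466), was at 18.2 and 12.5 CPM in Ter119neg WT, 13.0 and 6.76 in Ter119neg KO, 2.22 and 1.24 in Ter119pos WT and 3.92 and 4.4 in Ter119pos KO. Apoa2, its partner on the same particle (ENSMUSG00000005681, chromosome 1, 171225054 to 171226379), was at 7.90 and 4.48 CPM in Ter119neg WT, 4.54 and 2.18 in Ter119neg KO, 0.481 and 0.588 in Ter119pos WT and 1.61 and 1.90 in Ter119pos KO. The Ter119pos WT values of Apoa2 rest on 8 and 10 counts. Apob, the scaffold of the very-low-density and low-density particles (ENSMUSG00000020609, chromosome 12, 7977648 to 8016835), was at 45.0 and 23.3 CPM in Ter119neg WT and 23.6 and 10.5 in Ter119neg KO. In Ter119pos its 4 values lay between 3.18 and 4.92 CPM. Apoa1 and Apoa2 were higher in both Ter119pos KO libraries than in either WT library, and for Apob those groups overlapped.

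The transport proteins differed from one another in the Ter119pos fraction. Ttr encodes transthyretin, which carries thyroid hormone and retinol-binding protein (ENSMUSG00000061808). It was at 7.94 and 5.46 CPM in Ter119neg WT and 4.98 and 3.22 in Ter119neg KO, against 1.5 and 0.177 in Ter119pos WT and 2.03 and 2.42 in Ter119pos KO. Its lowest value rests on 3 counts. Trf encodes transferrin, the iron carrier that erythroid cells take up through their transferrin receptor (ENSMUSG00000032554, chromosome 9, 103204001 to 103230444). It was at 55.9 and 42.7 CPM in Ter119neg WT and 33.6 and 14.7 in Ter119neg KO, against 7.58 and 4.88 in Ter119pos WT and 3.64 and 8.8 in Ter119pos KO. The lowest and the highest of the 4 Ter119pos values of Trf were both KO libraries.

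Ahsg, Fgb and Serpina1a also had lower means in Ter119pos than in Ter119neg. Ahsg, for the mineral-binding plasma protein fetuin-A (ENSMUSG00000022868, chromosome 16, 22891277 to 22899449), ranged from 3.70 to 9.03 CPM in Ter119neg and from 0.824 to 3.02 in Ter119pos. Fgb, the beta chain of fibrinogen (ENSMUSG00000033831, chromosome 3, 83040141 to 83049863), ranged from 2.07 to 4.86 and from 0.471 to 1.64 CPM. Serpina1a, an alpha-1-antitrypsin gene (ENSMUSG00000066366, chromosome 12, 103853589 to 103863562), ranged from 1.84 to 7.80 and from 0.530 to 2.16 CPM. Serpina1a has near-identical neighbours, Serpina1b to Serpina1e, between which the counting could split reads, so its own level is uncertain. In Ter119pos, Fgb rests on 8 to 19 counts a library and Serpina1a on 9 to 25.

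**Figure D1:**
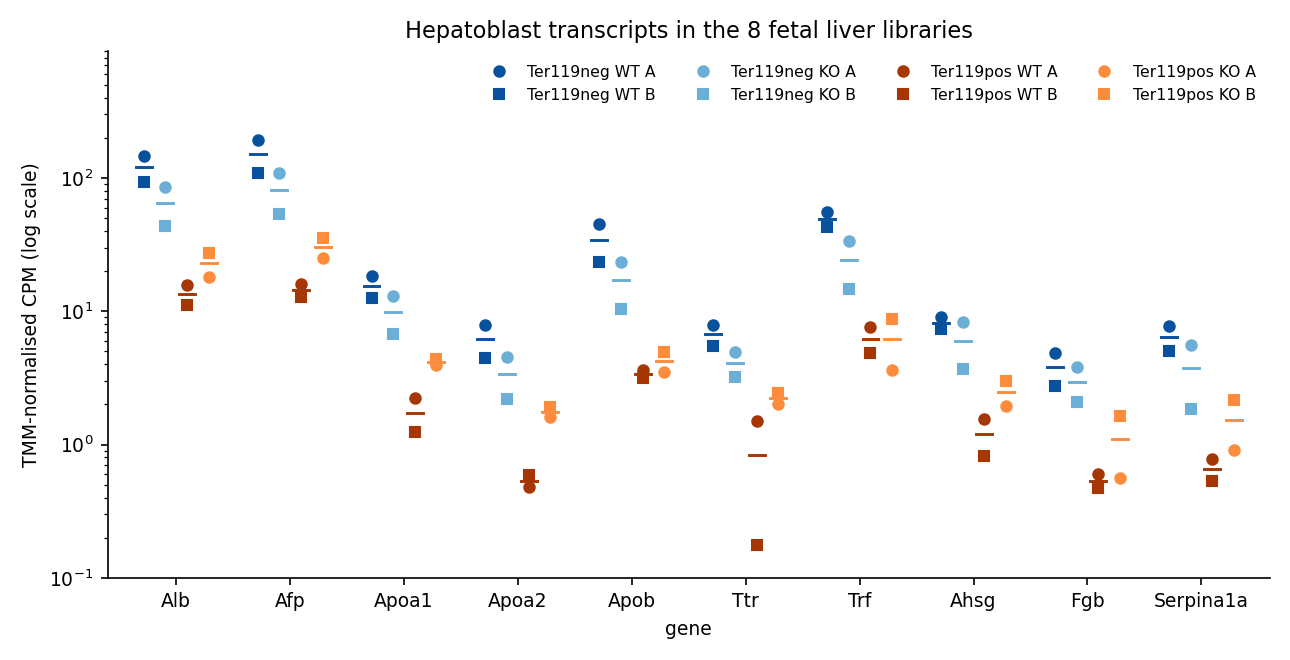
Level of each of the 10 transcripts (CPM, log axis) in the 8 fetal libraries, with circles for library A, squares for library B and a bar at each group mean (n = 2). For Alb the 4 Ter119neg libraries lie between 43.3 and 147 CPM and the 4 Ter119pos libraries between 11.1 and 27.4 CPM.

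Per kilobase of the longest annotated transcript, the order in Ter119neg WT was Afp (73.5 ± 29.0 CPM per kb, SD, n = 2), Alb (59.1 ± 18.6), Trf (19.2 ± 3.65), Apoa1 (14.9 ± 3.90), Apoa2 (12.0 ± 4.66), Ttr (5.65 ± 1.48), Ahsg (5.52 ± 0.80), Serpina1a (4.07 ± 1.23), Apob (2.45 ± 1.10) and Fgb (0.998 ± 0.394). The 2 libraries of one gene overlapped those of the next in this order, except between Alb and Trf, Apoa2 and Ttr, Ahsg and Serpina1a (narrowly) and Apob and Fgb. In Ter119pos WT the 5 leading genes kept this order, from Afp at 6.99 ± 1.13 to Apoa2 at 1.03 ± 0.147 CPM per kb. Apob, with by far the longest transcript, ranked higher by reads than by reads per length.

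The make-up of the summed counts changed little while their level changed much. Alb made up 29.4 to 31.3% of the counts of the 10 genes in every one of the 8 libraries, although the counts summed ranged from 607 to 25582. Even in the library with the fewest counts, Ter119pos WT B, the Wilson 95% interval of the Alb share was 27.4 to 34.8%. Afp made up 32.1 to 40.8%. Trf was the gene whose share moved most in absolute terms, from 5.93% (4.55 to 7.69%) in Ter119pos KO A to 15.1% (12.9 to 17.7%) in Ter119pos WT A, and the Ter119neg libraries lay between, at 10.4 to 13.9%. Ttr made up 0.494 to 3.31%, with the lowest share resting on 3 counts. These intervals cover counting error only, since reads without molecular identifiers are not independent molecules.

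**Figure D2:**
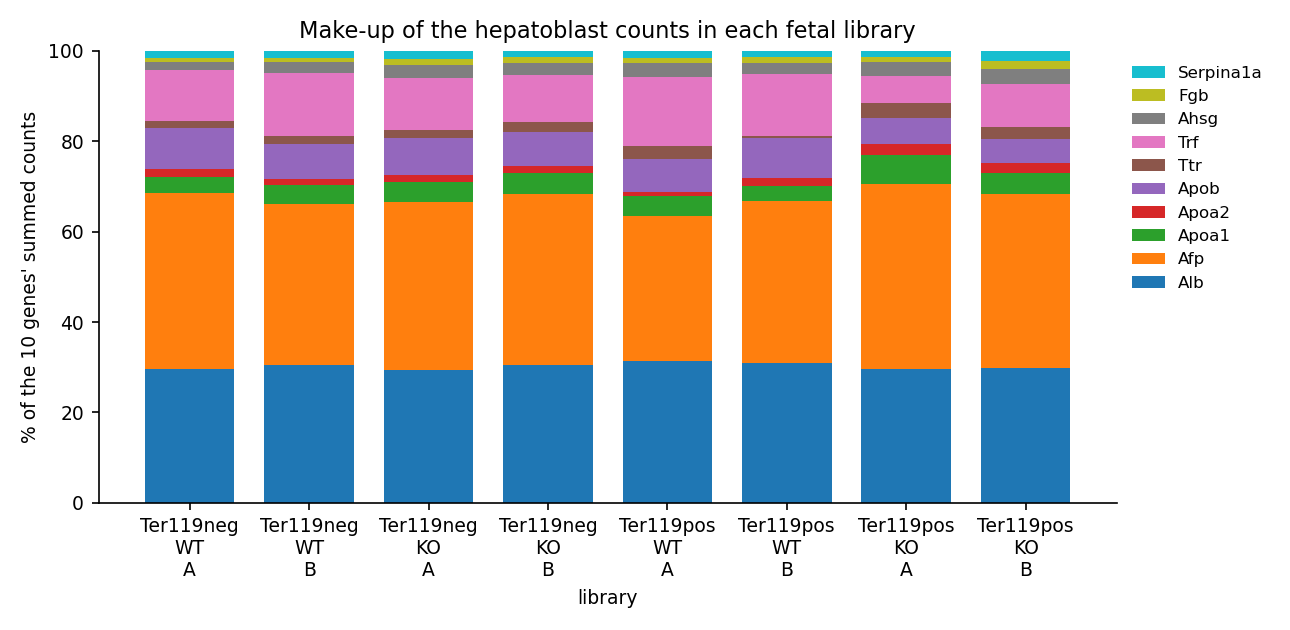
Share of the summed counts of the 10 genes taken by each gene (percent, stacked bars) in each of the 8 fetal libraries. Alb takes 29.4 to 31.3% of every bar, and Trf is narrowest in Ter119pos KO A (5.93%) and widest in Ter119pos WT A (15.1%).

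Summed over the 10 genes, Ter119neg WT libraries held 498 and 306 CPM and Ter119neg KO libraries 291 and 141 CPM. The Ter119pos WT libraries held 50.1 and 35.7 CPM and the Ter119pos KO libraries 61.4 and 92.2 CPM. Each gene's log2 CPM followed the mean of the 10 across the 8 libraries with a Pearson r between 0.906 (Ttr) and 0.997 (Alb), a description in which each gene is part of the mean and all values share library depth. As a share of all counts the 10 genes were minor everywhere, at 0.0193 to 0.0978% in Ter119neg and 0.00296 to 0.00396% in Ter119pos.

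Ter119pos cells of WT mice held less of all 10 transcripts than Ter119neg cells. The log2 difference, Ter119pos minus Ter119neg, was -3.17 for Alb (SE 0.331, edgeR adjusted p = 2.24e-06) and -3.40 for Afp. It was -3.15 for Apoa1, -3.53 for Apoa2, -3.33 for Apob, -3.00 for Ttr and -2.99 for Trf, and -2.78 for Ahsg, -2.83 for Fgb and -3.29 for Serpina1a. Of the 10 genes, 10 passed edgeR's quasi-likelihood test with Benjamini-Hochberg adjustment over all genes, all lower in Ter119pos, and of all 15566 genes tested 40.4% passed in that direction. The median of the 10 was -3.16 against -0.19 over all genes. In each of the 10 the 2 groups did not overlap, which was so in the same direction for 48.2% of all genes. The call for each gene held in each of the 17 other settings and left-out libraries tried.

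In KO mice the fractions lay closer together. Of the 10 genes, 7 fell from Ter119neg to Ter119pos against 32.3% of all genes, with log2 differences of -1.51 for Alb (SE 0.315, edgeR adjusted p = 0.00116), -1.42 for Afp, -1.25 for Apoa1, -2.03 for Apob, -1.99 for Trf, -1.28 for Ahsg and -1.47 for Fgb. Apoa2 (-0.94, edgeR adjusted p = 0.0651), Ttr (-0.89, 0.0982) and Serpina1a (-1.32, 0.0507) did not pass. For all but Serpina1a the KO groups did not overlap, against 44% of all genes lower in Ter119pos without overlap. The median was -1.37 against -0.12 over all genes. On library sizes alone all 10 passed, with a median of -3.17 against -1.86 over all genes, and 12270 of 15566 genes were called lower. Without the low count filter all 10 passed too. Without the Ter119neg KO library A, 4 of the 10 passed.

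Within a mouse, the 3 pairs of libraries differed widely in how much of the Ter119neg level the Ter119pos fraction held. Summed over the 10 genes, the Ter119pos CPM was 11.7% of the Ter119neg CPM in mouse 4 (WT; 95% interval 10.7 to 12.7%, counting error only), 21.1% in mouse 1 (KO; 19.7 to 22.6%) and 65.2% in mouse 2 (KO; 61.0 to 69.6%). By share of total counts these were 5.79, 6.25 and 19.5%, so that mice 4 and 1 lay close together on that scale. In mouse 1 the single genes ran from 10.8% for Trf to 40.8% for Ttr (median 22.2%), with Alb at 21.2% and Afp at 23.2%. In mouse 2 they ran from 47.0% for Apob to 118% for Serpina1a (median 70.9%), and in mouse 4 from 3.23% for Ttr to 17.2% for Fgb (median 11.6%). Alb and Afp had nearly the same ratio within each mouse, 63.4 and 66.7% in mouse 2 and 11.8 and 11.7% in mouse 4. Trf had the lowest ratio of the 10 in mouse 1 but not in mouse 2 (59.7%) or mouse 4 (11.5%). With 1 WT mouse the difference between genotypes in this ratio has no replicate.

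**Figure D3:**
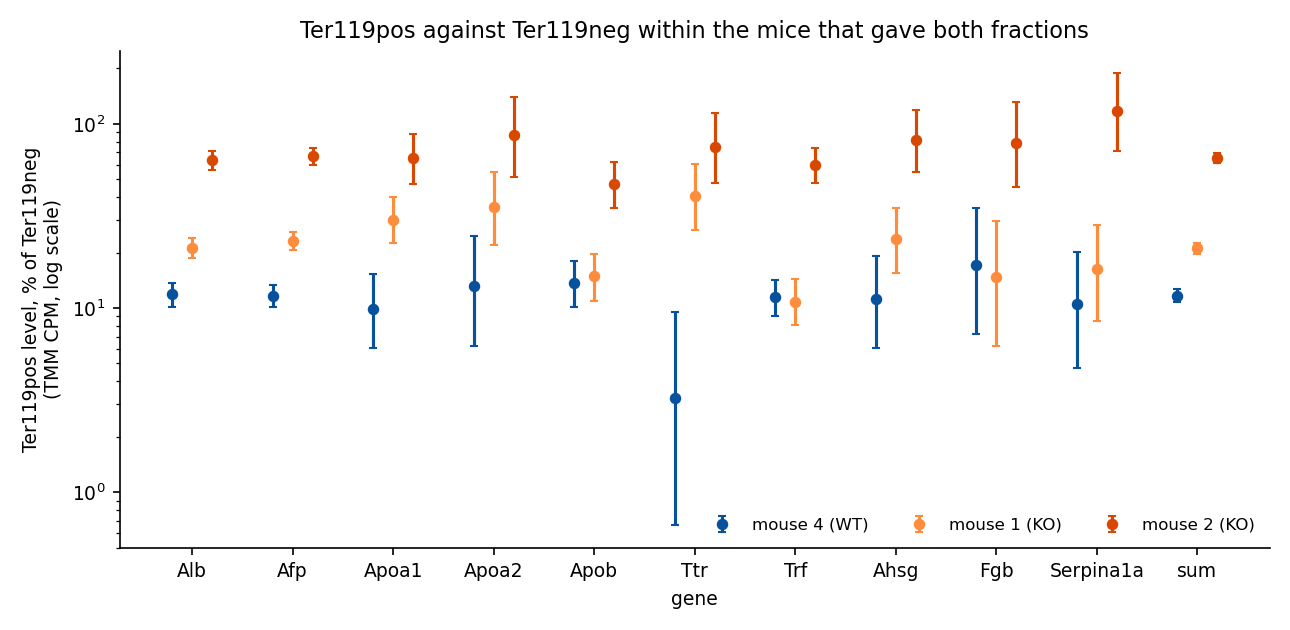
Ter119pos level as a percentage of the Ter119neg level of the same mouse (CPM, log axis) for each gene and for the sum, with 95% intervals for counting error, in mice 1 and 2 (KO) and mouse 4 (WT). The sum stands at 21.1, 65.2 and 11.7%, and by share of total counts mice 1 and 4 differ less (6.25 and 5.79%).

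In the Ter119neg fraction all 10 transcripts had a lower mean in KO than in WT, and 3 of them passed the test. Alb (64.5 ± 30.02 against 120 ± 37.9 CPM, SD, n = 2) differed by -0.90 on the log2 scale (SE 0.291, edgeR adjusted p = 0.0490), Apob by -1.01 (SE 0.327, 0.0491) and Trf by -1.03 (SE 0.330, 0.0472). That is 3 of 10 against 9.55% of all genes lower in KO. Afp (-0.91, edgeR adjusted p = 0.0553) and Apoa2 (-0.89, 0.0710) lay just past the threshold, and Serpina1a (-0.80), Ttr (-0.71), Apoa1 (-0.64), Ahsg (-0.46) and Fgb (-0.38) did not pass. The median was -0.84 against 0.01 over all genes. Alb, Afp, Ttr and Trf were lower in both KO libraries than in either WT library, as were 31% of all genes.

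The spread within each Ter119neg group was of the size of the difference between them. KO A, with 291 CPM summed, lay close to WT B, with 306 CPM, and KO B held 141. Without KO B 0 of the 10 passed edgeR's test, and without WT A, Ter119pos WT A or Ter119pos WT B also 0, while without KO A 8 passed, without WT B 5 and without Ter119pos KO A or B 1 each. DESeq2 called 0, edgeR on library sizes without TMM called 8, and the direction was the same. At an unadjusted edgeR p under 0.05, 32.4% of all genes passed in either direction, against 19.1% after adjustment.

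In the Ter119pos fraction 9 of the 10 log2 differences were above 0 on the TMM scale, while as a share of total counts 7 of the 10 had a higher mean in KO and Alb, Apob and Trf a lower one. On the TMM scale 3 of 10 were higher in KO, against 24.8% of all genes. Afp (30.3 ± 7.41 against 14.4 ± 2.32 CPM) differed by 1.07 on the log2 scale (SE 0.345, edgeR adjusted p = 0.0195), Apoa1 by 1.26 (SE 0.430, 0.0252) and Apoa2 by 1.70 (SE 0.589, 0.0276). Alb (0.76, edgeR adjusted p = 0.0759), Ttr (1.4, 0.0639), Ahsg (1.04, 0.106), Serpina1a (1.18, 0.207), Fgb (0.98, 0.241), Apob (0.29, 0.657) and Trf (-0.04, 0.955) did not pass. The median of the 10 was 1.05 against -0.04 over all genes, and 7 of them were higher in both KO libraries than in either WT library, against 35.8% of all genes.

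With library sizes alone, 0 of the 10 were higher in Ter119pos KO by edgeR and Trf was lower (-0.93, adjusted p = 0.0287). Alb stood at -0.13 and Apob at -0.59 on that scale. The median of all genes then stood at -0.93 and that of the 10 genes at 0.16, so the median of the 10 lay above that of all genes on both scales. Among all genes called, 45.8% were higher in KO with TMM and 13.9% without it. As CPM of all counts, with no TMM factor, Alb was at 8.77 and 11.2 in Ter119pos KO and 12.4 and 9.46 in WT, Afp at 12.1 and 14.51 against 12.7 and 10.9, and Trf at 1.75 and 3.59 against 6.0 and 4.18. The 10 genes together were at 29.6 and 37.6 in KO and 39.6 and 30.5 in WT, values that overlap. Apoa1 (1.89 and 1.80 against 1.76 and 1.06) and Apoa2 (0.776 and 0.775 against 0.381 and 0.503) stayed higher in both KO libraries on this scale. The part of the noncoding RNA share in the TMM result was not tested. Leaving out the Ter119pos KO library B or the WT library B took the number of genes called higher to 0, leaving out Ter119pos KO A to 1 and leaving out Ter119pos WT A to 2, while leaving out Ter119neg KO A or B took it to 7, and Ter119neg WT A or B to 5.

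**Figure D4:**
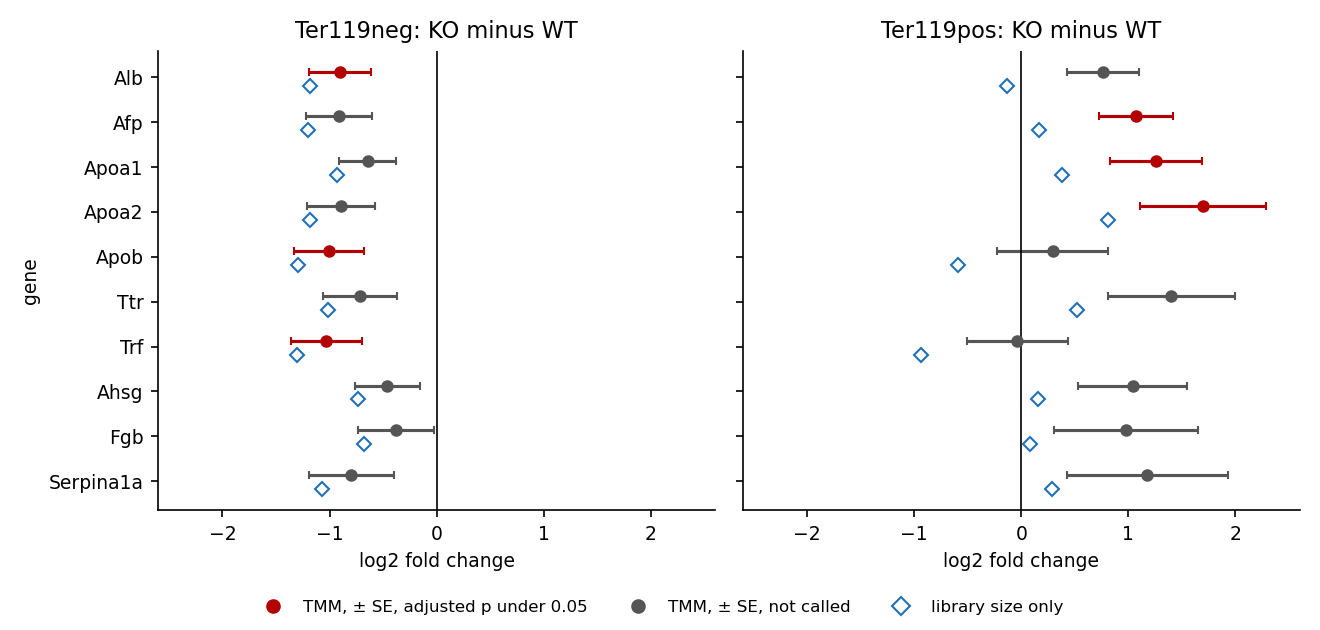
KO minus WT log2 difference (± SE, edgeR with TMM) of each gene in Ter119neg and Ter119pos, red where called, with open diamonds for the same fit on library sizes alone. The Ter119neg values are all below 0, and the Ter119pos values of Alb and Apob are above 0 with TMM (0.76 and 0.29) and below 0 without it (-0.13 and -0.59).

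The difference of the KO effect between the fractions, Ter119pos minus Ter119neg, was tested directly. It was positive for all 10 genes and passed for 5, against 19.3% of all genes in that direction. The values were 1.66 for Alb (SE 0.447, edgeR adjusted p = 0.0103), 1.98 for Afp (SE 0.460, 0.00450), 1.91 for Apoa1 (SE 0.505, 0.00955), 2.59 for Apoa2 (SE 0.667, 0.00833) and 2.11 for Ttr (SE 0.687, 0.0265). Serpina1a (1.97), Ahsg (1.5), Fgb (1.35), Apob (1.30) and Trf (0.99) did not pass. On library sizes alone 5 genes also passed, all positive. Here too 1 library mattered: 2 passed without Ter119pos WT B, 3 without Ter119pos KO B, 8 without Ter119neg WT B and 10 without Ter119neg KO A. With the replicate letter as a block 8 passed.

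LK cells came from another experiment, and their table was scaled and fitted apart, so levels stand beside the fetal ones with no test across the tables. Alb, Ttr, Fgb and Serpina1a had 0 counts in all 6 LK libraries, which allows up to 0.0359 CPM in the WT group and 0.0363 CPM in the KO group (3 counts over the group). Trf alone made up 93.3 to 98.9% of the summed level of the 10 genes, at 106, 58.5 and 67.0 CPM in WT and 114, 49.7 and 74.5 CPM in KO. Its range there covers the Ter119neg range of 14.7 to 55.9 CPM in part and lies above the Ter119pos range. Without Trf the sum was 0.787 to 4.07 CPM, below every fetal library. Afp was counted in all 6 LK libraries, and Apoa1 and Apoa2 in some of them.

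Of the 10 genes only Afp, Apoa1 and Trf passed the low count filter in LK cells. Without a block edgeR called 0 of these 3, against 1.82% of all genes in either direction and 17.5% at an unadjusted p under 0.05. DESeq2 called 1. Afp was at 3.58, 2.48 and 1.71 CPM in KO and 0.866, 2.92 and 0.496 in WT (log2 difference 0.93, edgeR adjusted p = 0.523), and Trf differed by 0.04 (0.965). Apoa1 had 10, 15 and 12 counts in the KO libraries and 0 in each of the 3 WT libraries, at least 12.5-fold higher against 3 counts over the WT group. Its edgeR adjusted p was 0.0751, and over 10 alternatives it ran from 0.00243 (DESeq2) to 0.223, under 0.05 in 4. With the library letter as a block it was 0.0153, in a fit that called 3129 of 13771 genes against 250 without the block. LK libraries of the same letter deviated together. Apoa2, below the filter, went the other way, with 2, 0 and 2 counts in KO and 10, 11 and 8 in WT. Ahsg and Apob had at most 2 counts in any LK library.

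Other secreted liver proteins followed the 10 genes. Of 29 further plasma protein genes, 26 were tested, and 24 of these fell from Ter119neg to Ter119pos in WT and 15 in KO (edgeR), against 40.4 and 32.3% of all genes, with a median of -2.92 in WT. Their summed level was 132 and 79.2 CPM in Ter119neg WT, 92.4 and 42.9 in Ter119neg KO, 20.1 and 16.6 in Ter119pos WT and 24.0 and 29.9 in Ter119pos KO. In the LK libraries, scaled apart, it was 1.05 to 2.08 CPM. In Ter119neg KO against WT 0 of the 26 passed in edgeR, with a median of -0.63, and with library sizes alone 11 were lower. There the fibrinogen chains Fga (-0.38) and Fgg (-0.41) stood near Fgb (-0.38). The alpha-1-antitrypsin genes Serpina1b (-0.76) and Serpina1c (-0.86) stood near Serpina1a (-0.80), and these did not pass either. Reads may be split between these near-identical Serpina1 genes, so their values are not independent. In Ter119pos 5 of the 26 were higher in KO and 1 lower with TMM, no more than the 24.8 and 29.3% of all genes. On library sizes alone 2 were higher and 3 lower. The 5 were Fga (1.36), Serpina1b (1.80), Serpina1c (2.90), Vtn (1.90) and Itih4 (3.10), and of these Serpina1c had 0 counts in 1 WT library. The 1 that was lower was Serpinc1, for antithrombin, at 1.82 and 2.85 CPM in Ter119pos KO and 5.83 and 4.77 in WT. Serpinc1 and Cp were the 2 of the 26 that did not fall from Ter119neg to Ter119pos in WT.

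The transcription factors of the hepatoblast were near the limit of detection. Of 14 hepatic transcription factors 8 were tested. The summed level of the list was 4.6 to 9.3 CPM in Ter119neg and 1.6 to 3.5 CPM in Ter119pos. In the LK libraries, scaled apart, it was 2.2 to 8.7 CPM, so these counts are not restricted to liver cells. Of the 8, 6 fell from Ter119neg to Ter119pos in WT, against 40.4% of all genes, and 1 did in KO, below the 32.3% of all genes. Hnf4a, the nuclear receptor that maintains hepatocyte identity, was that 1, with -2.39 in WT and -1.73 in KO. Prox1, a homeobox factor of hepatoblasts, differed by -2.23 in WT (edgeR adjusted p = 0.00153) and by -0.30 in KO, which did not pass. Onecut2 passed in neither (-0.81 and 0.08). Between genotypes 0 of the 8 passed in Ter119neg, against 19.1% of all genes in either direction. In Ter119pos 1 was higher in KO, below the 24.8% of all genes. It was Foxa3, with 0 counts in both WT libraries and 1 and 5 counts in KO.

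Of 11 surface and epithelial genes of hepatoblasts 9 were tested, and all 9 fell from Ter119neg to Ter119pos in WT and 7 in KO, against 40.4 and 32.3% of all genes. Dlk1, a surface protein used to sort hepatoblasts, was at 12.2 and 7.51 CPM in Ter119neg WT, 7.92 and 6.49 in Ter119neg KO, 0.842 and 0.647 in Ter119pos WT and 1.4 and 1.98 in Ter119pos KO. Its WT groups were far apart (log2 difference -3.73, SE 0.324), as were those of Gpc3, a heparan sulfate proteoglycan of fetal liver (-3.73, SE 0.443), and Krt8, an epithelial keratin (-2.65). Met, the hepatocyte growth factor receptor, was the 1 gene of the 9 lower in Ter119neg KO (-0.75, edgeR adjusted p = 0.00395), near the 9.55% of all genes. In Ter119pos, 2 of the 9, Dlk1 (1.16) and Krt18 (0 counts in WT A), were higher in KO with TMM, no more than the 24.8% of all genes. With library sizes alone 1 gene of the list was. The summed level of the list was 24.5 to 43.2 CPM in Ter119neg and 2.9 to 8.8 CPM in Ter119pos. In the LK libraries, scaled apart and without Alb counts, it was 32.1 to 107 CPM, so the list is not restricted to liver cells.

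Of 16 hepatic metabolism enzymes 7 were tested, and 4 of these fell from Ter119neg to Ter119pos in WT, near the 40.4% of all genes. Otc of the urea cycle (-1.88) was among them. Ass1, an enzyme of arginine synthesis that other cells also express, was higher in KO in both fractions (0.74 and 2.23), and in Ter119neg, at 55.8 and 58.7 CPM in KO and 35.5 and 33.1 in WT, it moved against the 10 genes. Fah, of tyrosine breakdown, was at 7.07 and 8.71 CPM in Ter119pos KO, 1.5 and 1.65 in Ter119pos WT and at most 1.04 in Ter119neg. Its rise from Ter119neg to Ter119pos passed in both genotypes with TMM, and in WT it turned to -0.08 on library sizes alone. Of the 5 imprinted fetal genes, H19 (0.87), Igf2 (2.22), Meg3 (2.10) and Cdkn1c (1.87) were higher in Ter119pos KO than in WT with TMM, and Peg3 was lower (-2.03), against 24.8 and 29.3% of all genes. On library sizes alone H19 stood at -0.05, and in the setting with the fewest calls 2 of the 5 were higher. In Ter119neg KO only Peg3 passed (-0.58, edgeR adjusted p = 0.0186).

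Of 11 receptors and partners of these proteins tested, 7 fell from Ter119neg to Ter119pos in WT and 2 rose, against 40.4 and 35.9% of all genes, with a median of -1.002. On library sizes alone 9 fell and 1 rose. Tfrc, the transferrin receptor of erythroid cells, was at 220 and 234 CPM in Ter119neg WT and 151 and 161 in KO, and at 1647 to 4376 CPM in the Ter119pos libraries. It rose from Ter119neg to Ter119pos by 4.17 on the log2 scale in WT, while its ligand gene Trf fell by 2.99. Tfr2, another transferrin receptor, rose by 1.42, and these were the 2 that rose. Fcgrt, the receptor that recycles albumin, was at 4.59 and 4.56 CPM in Ter119neg WT and 1.21 and 0.798 in KO (-2.19, SE 0.323, edgeR adjusted p = 0.000662). Of the 11, 8 were lower in Ter119neg KO and 0 higher, against 9.55 and 9.57% of all genes. In Ter119pos 2 were higher and 4 lower, near the 24.8 and 29.3% of all genes, and on library sizes alone 1 was higher and 8 lower. Without 1 library the number lower in Ter119neg KO ranged from 2 to 8.

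Markers of other liver cells moved with the genotype in the same libraries. All 14 macrophage genes tested (of 15 listed) were lower in Ter119neg KO, against 9.55% of all genes, and their summed level was 37.6 and 34.2 CPM in KO against 147 and 156 in WT. Adgre1 (-2.38), Csf1r (-1.67), Cd5l (-3.25) and C1qa (-3.02) are defining genes of fetal liver macrophages, and with each library left out 13 or 14 of the list passed. The sums of both lists were lower in both KO libraries than in either WT library, those of the macrophage genes by a wide gap and those of the 10 hepatoblast transcripts narrowly, with 291 CPM in KO A and 306 CPM in WT B. In Ter119pos the macrophage sums overlapped, at 47.3 and 60.6 CPM in KO and 85.5 and 46.5 in WT. From Ter119neg to Ter119pos 9 of the 14 macrophage genes fell in WT, against 40.4% of all genes, with a median of -0.97, and on library sizes alone 14 fell. In KO 10 were higher and 2 lower in Ter119pos with TMM, against 30.3 and 32.3% of all genes. On library sizes alone 0 were higher and 5 lower in KO, when 12270 of all 15566 genes were lower.

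Of 11 endothelial genes 4 were lower and 1 higher in Ter119neg KO, against 9.55 and 9.57% of all genes. Cdh5, a junction protein of vessels, was at 6.63 and 5.65 CPM in WT and 1.51 and 1.20 in KO (-2.18), whereas Kdr (-0.98) and Tie1 (-0.26) did not pass. Tek, a vascular receptor, was higher in KO in both fractions, and in Ter119pos it was at 14.7 and 13.6 CPM in KO and 0.120 and 0.235 in WT. Of 13 stellate and mesenchymal genes 2 were higher in Ter119neg KO, against 9.57% of all genes, Col1a1 and Col1a2, at 9.43 and 17.2 CPM in KO and 4.94 and 4.10 in WT for Col1a2. Among the Ter119neg libraries the collagens were highest in KO B, the 1 with the least of the 10 hepatoblast transcripts in that fraction. A relation between them was not tested. Pdgfrb differed by -0.34 and did not pass. The fall between fractions was not limited to the liver lists. From Ter119neg to Ter119pos in WT, 10 of 11 endothelial genes were lower (median -2.58), against 40.4% of all genes. Of the 13 stellate and mesenchymal genes, 10 were lower and 2 higher (median -2.66). The summed level of that list nevertheless rose, from 38.0 and 30.7 CPM in Ter119neg WT to 187 and 158 in Ter119pos WT. In KO its sum was 42.7 and 66.2 CPM in Ter119neg and 91.4 and 97.9 in Ter119pos. In KO 5 endothelial genes were lower and 2 higher, and 3 stellate and mesenchymal genes lower and 1 higher, against 32.3 and 30.3% of all genes. Of 5 bile duct genes 1 was tested, Spp1, and of 5 mesothelial genes 1, Lrrn4, each with 0 counts in both Ter119pos WT libraries and under 1 CPM elsewhere. Erythroid genes, 10 tested of 12 listed, were all higher in Ter119pos in both genotypes with TMM, against 35.9% of all genes in WT and 30.3% in KO, and in KO Epor and Gata1 turned on library sizes alone (-0.11 and -0.22). In Ter119neg KO 6 were higher, against 9.57% of all genes, with Hba-a1 at 171 and 274 CPM in KO and 102 and 75.1 in WT. The part of these cell types in the hepatoblast values was not tested.

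**Figure D5:**
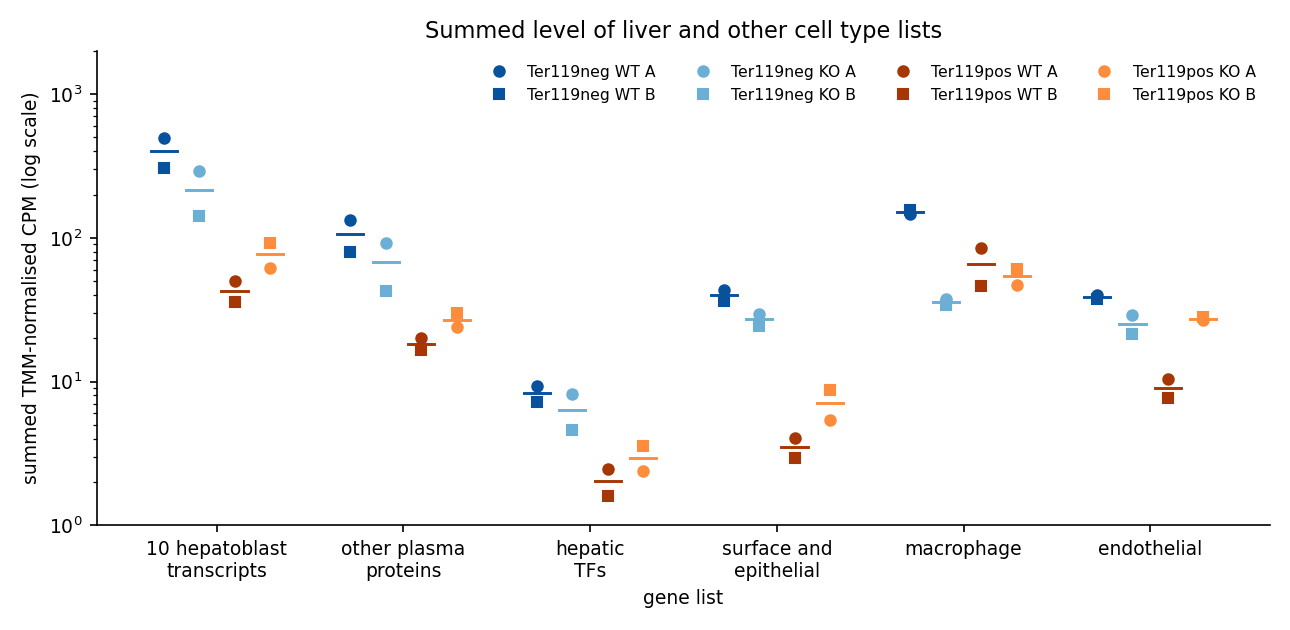
Summed level (CPM, log axis) of the 10 transcripts and of 5 lists of other genes in each fetal library, circles for library A and squares for library B. The plasma protein, transcription factor and surface lists fall from Ter119neg to Ter119pos with the 10 transcripts. In WT the endothelial list falls too, from 40.1 and 37.6 to 10.5 and 7.65 CPM, as does the macrophage list. The macrophage list separates the Ter119neg genotypes (34.2 and 37.6 against 147 and 156 CPM).

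Genes outside the 10 with the most similar pattern were ranked by Pearson r between their log2 CPM and the mean of the 10 over the 8 fetal libraries, among 10546 protein-coding genes with a mean of at least 1 CPM. Among the 8 closest were Fn1 (r = 0.991), Gpc3 (0.987), F2 (0.985), Ptger1 (0.985), Serpinf2 (0.985), Rrbp1 (0.981) and Pecam1 (0.980). Of all candidates 953, or 9.04%, had an r above 0.9, since many genes separate the fractions, so the ranking is a description only. F2 (prothrombin), Serpinf2 and Gpc3 belong to the liver lists, and Pecam1 is a gene of endothelial and blood cells. Fn1, for fibronectin, was at 23.5 and 17.7 CPM in Ter119neg WT, 16.6 and 9.52 in Ter119neg KO, 3.19 and 3.06 in Ter119pos WT and 5.04 and 6.56 in Ter119pos KO, the same order of groups as for Alb.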

How the data were processed

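RNA of 8 sorted fetal liver libraries and 6 LK libraries was sequenced from stranded total RNA kits. Fetal RNA was taken up in Trizol with Ribo-Zero removal of ribosomal RNA, and LK RNA with a Qiagen column kit, per the labels' protocols. STAR 2.5.3 and RSEM with GRCm38 (mm10) are named per the submitters' processing notes, with no annotation release given. The deposited values are RSEM expected counts per gene, per the labels and the tables' values, and every data column was assigned to a sample (0 left over). Positions, gene types and transcript lengths come from GENCODE M21, which held 45143 of the 45706 gene identifiers, and promoters from RefSeq.

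Expected counts were rounded and fitted in R 4.3.3 with edgeR 4.0.16 (TMM, filterByExpr with a minimum count of 10, quasi-likelihood F tests). The 8 fetal libraries shared 1 fit (15566 genes) and the 6 LK libraries another (13771 genes). Benjamini-Hochberg adjustment ran over all genes of a comparison, with calls under 0.05. The SE comes from the log2 fold change and the F statistic. The 10 genes and the other lists (160 of 162 listed genes were found, Ahsp and Epb42 not) were chosen with earlier results of these data known. From each other list the first 4 genes tested are named, and genes needed to explain a count of 5 or fewer; a few genes this rule takes are not reported here. Further genes were named after their values were seen: Vtn, Itih4, Cp, Fah, Epor and Gata1. Floors and intervals (95%) cover counting error only.

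Fetal libraries of the same letter had correlations of deviations from group means of 0.0047 (Ter119neg) and -0.029 (Ter119pos), those of mouse 1 (and so of mouse 2) 0.155 and those of mouse 4 -0.068. LK libraries of the same letter had 0.604, 0.719 and 0.730, above the 0.1 needed to pair them. The labels do not say what the LK letters share. The main fits of both tables had no block, and the fits with blocks are given beside them. For a mouse block in limma-voom (limma 3.58.1) the consensus correlation was 0.166. Each library was left out in turn, and fits were repeated without the filter, with RLE scaling, in limma-voom, in DESeq2 1.42.0, on single fractions, without globin genes and with blocks. Library sizes alone and protein-coding scaling were added after the data were seen. Tested on simulated data for KO against WT, edgeR found, out of 100 genes per fold size, 74 at 2-fold and 99 at 4-fold in Ter119neg (14998 genes, 23 false calls), and 65 and 92 in Ter119pos (15168 genes, 12 false calls). Changes were planted only in genes above a mean count, and nothing else differed between the simulated genotypes. These rates therefore do not cover low-count genes or the difference in noncoding RNA share.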

Additional observations from a re-analysis of the deposited data

Results flagged for a closer look

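For 5 of the 10 genes the KO effect differed between the fractions by edgeR's test of the difference itself, with 2 libraries in each of the 4 groups. Of all genes tested 19.3% passed with a positive difference, as these 5 did. The difference, Ter119pos effect minus Ter119neg effect on the log2 scale, was 1.66 for Alb, 1.98 for Afp, 1.91 for Apoa1, 2.59 for Apoa2 and 2.11 for Ttr. In each of these genes both Ter119pos KO libraries were above both WT libraries in CPM, as in 35.8% of all genes. In Alb, Afp and Ttr both Ter119neg KO libraries were also below both WT libraries, as in 31% of all genes. In Apoa1 and Apoa2 the Ter119neg groups overlapped. The 5 genes were picked by the difference in these same libraries, so these orders are no separate support for it. On library sizes alone the 5 differences between fractions also passed, and the Ter119pos values stood at -0.13 for Alb, 0.17 for Afp, 0.38 for Apoa1, 0.81 for Apoa2 and 0.52 for Ttr, none of which passed.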

How the results depend on the processing

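All 10 genes were called lower in Ter119pos WT than in Ter119neg WT in every setting run, each left-out library included. The other counts of genes called moved. For KO against WT in Ter119neg (3 called) they were 9 without the low count filter, 0 in DESeq2, 5 in limma-voom, 1 with the fraction alone, 8 on library sizes alone and 5 with protein-coding scaling, and 0 to 8 with each library left out. For Ter119pos (3 called) they were 7 without the filter, 1 in limma-voom, 5 with globin genes removed, 7 with the fraction alone, 1 (Trf, lower) on library sizes alone and 5 with protein-coding scaling, and 0 to 7 with each library left out. For the difference between fractions (5 called) they were 10 without the filter and 2 to 10 with each library left out, and for the KO fractions (7 called) 4 to 9. For the KO fractions 10 were called without the filter and 10 on library sizes alone. With the letter as a replicate block 6 genes were called in Ter119neg, 8 for the difference between fractions, 5 in Ter119pos and 1 in LK cells (Apoa1). The fetal letters share only a letter, and a mouse block in limma-voom moved the count for the KO fractions from 6 to 7 and left 10 in WT and 5 for the difference. In LK cells (0 called) 1 was called without the filter, 1 in DESeq2 and 1 on library sizes alone, and 0 with each library left out. Over all LK genes edgeR called 250, and 3129 with the letter as a block. DESeq2 called 1074, library sizes alone 150, and edgeR 33 to 268 with each library left out. With each fetal library left out the count over all genes in Ter119neg ranged from 1450 to 3120, against 2976 with all of them.

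The mean summed level as CPM of all counts with no TMM factor was 333 in Ter119neg KO, 753 in Ter119neg WT and 33.6 in Ter119pos KO. As CPM of protein-coding counts other than globin it was 689, 1251 and 123 there and 68.6 in Ter119pos WT. Some log2 differences changed sign. Trf in Ter119pos (-0.04) stood at 0.0661 with globin genes removed, 0.0029 with the letter as a block, 0.15 with the fraction alone, 0.0154 with protein-coding scaling, and -0.77 to 0.50 with each library left out. On library sizes alone Apob in Ter119pos moved from 0.29 to -0.59 and Alb from 0.76 to -0.13. Fgb in Ter119neg (-0.91 to 0.0670 with each library left out) turned without Ter119neg WT A. Trf in LK cells ranged from -0.31 without KO A to 0.38 without WT A. The cause was not tested. Library sizes alone moved the median log2 difference of all genes to -0.30 in Ter119neg, -0.93 in Ter119pos, -0.58 for the difference, -1.35 in WT and -1.86 in KO between fractions. The share of calls that were higher moved from 50.1 to 17.5% in Ter119neg, 46.2 to 17.5% for the difference, 47.0 to 20.3% in WT and 48.4 to 6.98% in KO. In Ter119pos, Ahsg, Apoa2, Fgb, Serpina1a and Ttr each had at least 1 library under 20 counts.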
